A study of Pistacia vera with 20 samples.

Results

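Metallothioneins are small proteins rich in cysteine that bind copper, zinc and other metal ions. Plants carry several types, told apart by where the cysteines sit; type 2 transcripts are known from many organs, type 3 transcripts are known from leaves and ripening fleshy fruits, and type 4 transcripts from seeds. Here 3 metallothionein-like genes of the pistachio (Pistacia vera) hull were followed, out of 39783 genes in the deposited table. They were chosen because their protein names read metallothionein-like type 2, 2 and 3 and because their transcripts were among the most abundant in the hull, so their high level is a description of the choice and was not tested. How they differ between ages, cultivars and split and intact hulls was not part of that choice and was tested.

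The hull is the exocarp and mesocarp around the shell, here of commercially grown orchard trees of 2 cultivars, Golden Hills and Lost Hills. Intact hulls were sampled at 91 days post anthesis (4 libraries per cultivar). At 133 days there were 4 groups of 3 libraries: Golden Hills hulls that were intact or tattered, and Lost Hills hulls that were intact or cracked. No treatment is given. Each cultivar has a single kind of split, so that tattering and cracking cannot be told apart from cultivar. The labels number the bioreps without saying which trees they came from, so p-values measure the spread between these samples.

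The most abundant of the 3, called the merged type 2 gene below, is evm_TU_ptg000016l_632_evm_TU_ptg000016l_633, 2 gene predictions joined into 1 (contig ptg000016l, plus strand, 7515025 to 7520248, 681 bases of transcript). Whether these are 2 gene copies counted as 1 cannot be settled here, so its level may be a sum over 2 genes. The single type 2 gene, evm_TU_ptg000016l_631, lies upstream on the same strand (7496673 to 7497496, 531 bases) with 17528 bases and no other annotated gene between them; it alone carries the Pfam metallothionein domain in the table. The type 3 gene is evm_TU_ptg000009l_2186 (contig ptg000009l, minus strand, 28002605 to 28003639, 453 bases). Coordinates are on contigs of an assembly whose build is not given in the sources used here. Whether reads shared by the neighbouring type 2 genes were split or dropped is not given in the sources used here, so the division of reads between them is uncertain. A further metallothionein-like gene of the table, evm_TU_ptg000020l_1273, matches the seed-type Metallothionein-like protein 4B of Arabidopsis. It had 5 reads over all libraries, at most 3 in any library, and 0 in 17 of 20, where a count of 0 allows up to 3 reads or 0.647 to 0.837 FPKM.

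Levels are FPKM, fragments scaled to transcript length and library size, as the authors deposited them. The reads behind each value could be recovered and came to between 16116971 and 18609861 per library. Each member had at least 2180 reads in every library, so counting error is small beside the spread between libraries. A gene was tested where 3 or more libraries held 1 FPKM or more, which left 19716 genes with all 3 members among them. In the 91 d libraries labelled replicate 2, genes that at 133 d were expressed in all libraries of the other cultivar and had at most 3 reads in each library of their own were present: all 14 such Golden Hills genes had over 3 reads in the Lost Hills library, at a median of 36.9% of their own-cultivar level, and all 12 Lost Hills genes had over 3 reads in the Golden Hills library, at 27.1%. In replicate 3 of Golden Hills, 11 of 12 had over 3 reads, at 9.15%. Results at 91 d are therefore also given without both replicate 2 libraries. Marker lists of other tissues were followed in all groups. Summed transcripts of 25 seed storage genes reached at most 116 FPKM and those of 3 xylem genes at most 2.30, and those of 20 chlorophyll a-b binding genes lay between 308 and 501 FPKM at 91 d and between 198 and 297 at 133 d.

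The 3 transcripts together made up several percent of all expression in the hull, and within each cultivar every 91 d library held more than every 133 d library. As a share of summed FPKM they held 5.51% ± 1.14 in Golden Hills and 7.56% ± 0.820 in Lost Hills at 91 d (SD, n = 4 each). At 133 d Golden Hills held 3.58% ± 0.172 when intact and 3.58% ± 0.107 when tattered (SD, n = 3 each). Lost Hills held 4.14% ± 0.818 when intact and 3.89% ± 0.608 when cracked (SD, n = 3 each). The single highest library was replicate 4 of Lost Hills at 91 d with 8.64%, and the lowest was replicate 1 of cracked Lost Hills with 3.19%. Because the transcripts are short, their share of reads was smaller, from 1.26% (95% Wilson interval 1.259 to 1.270) to 3.16% (3.153 to 3.169) in those same libraries. The intervals cover counting error only. Without replicate 2 of both 91 d groups the shares of FPKM at 91 d were 5.25% and 7.74%.

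**Figure D1:**
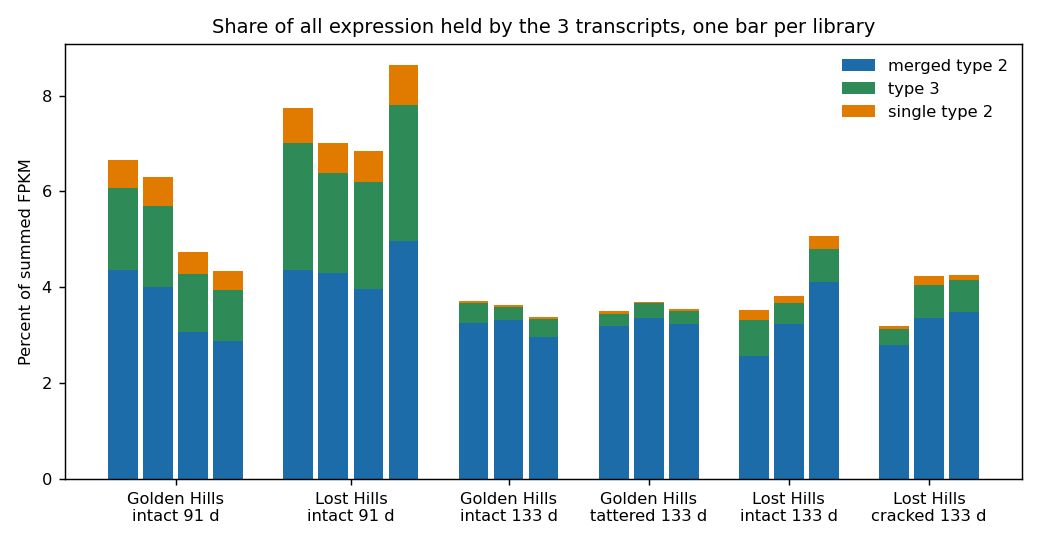
Percent of summed FPKM (vertical axis) held by the merged type 2 gene, the type 3 gene and the single type 2 gene, 1 stacked bar per library, grouped by cultivar, state of the hull and days post anthesis. The 8 bars at 91 d reach 4.34% to 8.64%; the 12 bars at 133 d reach 3.19% to 5.07%, and the type 3 and single type 2 layers are thin there.

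What made up the share differed with age. The merged type 2 gene held 65.2% ± 1.23 of the FPKM of the 3 in Golden Hills at 91 d and 88.7% ± 2.20 in intact hulls at 133 d. In Lost Hills it held 58.3% ± 2.13 at 91 d and 79.7% ± 6.01 in intact hulls at 133 d (SD, n = 4 at 91 d and 3 at 133 d). Of the drop in mean summed level between the ages, which was 8503 FPKM in Golden Hills and 18810 in Lost Hills, the type 3 gene gave 67.4% and 54.9%, the single type 2 gene 30.8% and 15.1%, and the merged type 2 gene 1.71% and 30.04%. The merged type 2 part rested on single libraries. In Golden Hills it was -35.8% (a mean higher at 133 d) without 91 d replicate 1, -5.88% without 91 d replicate 2, -6.13% without 133 d replicate 3, and 13.4% and 14.3% without 91 d replicates 3 and 4. It was 4.43% and 6.14% there without 133 d replicates 1 and 2. In Lost Hills it was 19.5% without 133 d replicate 1 and between 26.2% and 37.6% without any other library. The type 3 part was the largest of the 3 in each of these, at 59.4% to 91.5% in Golden Hills and 48.6% to 63.5% in Lost Hills.

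The merged type 2 gene was the most abundant transcript by FPKM in 19 of 20 libraries. In replicate 1 of intact Golden Hills at 133 d it stood second at 20696 FPKM, below the undescribed evm_TU_ptg000001l_3518 at 20782. By reads the merged type 2 gene stood 3rd in that library and 2nd in replicates 1 and 3 of tattered Golden Hills. At 91 d its level was 26580, 22075, 16597 and 16114 FPKM in replicates 1 to 4 of Golden Hills. The matching libraries of Lost Hills had 24454, 23826, 22495 and 29263 FPKM. Golden Hills at 133 d had 20696, 20962 and 18929 FPKM when intact and 22230, 24842 and 23533 when tattered. Lost Hills at 133 d had 14586, 19054 and 24437 FPKM when intact and 16939, 19524 and 21222 when cracked. The highest library stood only 2.01 times above the lowest, and each group overlapped the next in the order of group means, which ran from Lost Hills at 91 d (25010 ± 2951) to cracked Lost Hills (19228 ± 2157). Tattered and intact Golden Hills at 133 d did not overlap each other, with every tattered library higher. Summed FPKM of all genes was also higher in the tattered libraries (694783 to 736523) than in the intact ones (631900 to 639642). As a share of summed FPKM the groups overlapped, at 3.20% to 3.37% and 2.96% to 3.32%, and the log2 difference was 0.044 on TPM in place of 0.22 as deposited.

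The single type 2 gene had a different course. At 91 d Golden Hills had 3611, 3338, 2467 and 2247 FPKM, and Lost Hills had 4022, 3490, 3648 and 4908. At 133 d Golden Hills had 301, 251 and 328 FPKM when intact and 405, 292 and 271 when tattered. Lost Hills at 133 d had 1185, 827 and 1545 FPKM when intact and 290, 1079 and 615 when cracked. The ages did not overlap in either cultivar, nor did intact hulls of the cultivars at 133 d, while cracked Lost Hills reached from within the tattered Golden Hills range up into the intact Lost Hills range. By level this gene stood between the 5th and 7th place among all genes in every 91 d library, between the 192nd and 378th in Golden Hills at 133 d, and between the 16th and 264th in Lost Hills at 133 d. In the order of group means the only neighbours without overlap were Golden Hills at 91 d (2916 ± 661) and intact Lost Hills at 133 d (1186 ± 359).

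The type 3 gene was second by FPKM only to the merged type 2 gene in all 8 libraries of 91 d. Golden Hills had 10374, 9303, 6482 and 5859 FPKM there, and Lost Hills had 14810, 11511, 12657 and 16811. Golden Hills at 133 d was at 2650, 1754 and 2404 FPKM when intact and at 1702, 2158 and 1920.2 when tattered. Lost Hills at 133 d was at 4172, 2560 and 4124 FPKM when intact and at 2123, 4020.3 and 4046 when cracked. Every library of 91 d was above every library of 133 d. At 91 d the cultivars did not overlap, with Lost Hills higher, and at 133 d the intact groups overlapped, the lowest library of Lost Hills (2560) lying below the highest of Golden Hills (2650). In the order of group means, Lost Hills at 91 d (13947 ± 2348), Golden Hills at 91 d (8004 ± 2177) and intact Lost Hills at 133 d (3619 ± 917) were parted without overlap, and the 4 groups of 133 d overlapped from each to the next.

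**Figure D2:**
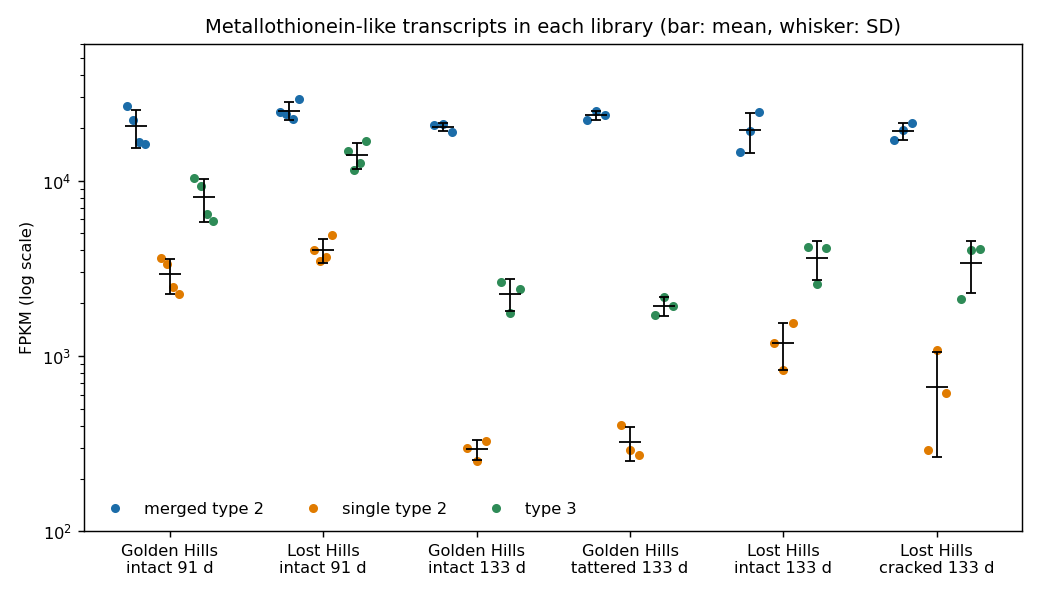
FPKM of the 3 transcripts (vertical axis, log scale) in each of the 20 libraries (points), with the mean (bar) and SD (whisker) of each group. Levels of the merged type 2 gene stay between 14586 and 29263 FPKM, while the type 3 and single type 2 genes lie lower in every 133 d library than in every 91 d library.

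The comparison of intact hulls at 133 d with 91 d asked how the transcripts differ between the ages within a cultivar. By limma with Benjamini-Hochberg adjustment over all genes tested, the single type 2 gene fell 9.77-fold in Golden Hills (log2 fold change -3.29, SE 0.33, adjusted p = 5.19e-07) and 3.46-fold in Lost Hills (-1.79, SE 0.33, adjusted p = 0.000511). Type 3 transcripts fell 3.48-fold in Golden Hills (-1.80, SE 0.29, adjusted p = 8.01e-05) and 3.91-fold in Lost Hills (-1.97, SE 0.29, adjusted p = 7.92e-05). The merged type 2 gene did not pass, at 0.02 (95% interval -0.67 to 0.71) in Golden Hills and -0.39 (-1.08 to 0.29) in Lost Hills. The sign in Golden Hills was negative with TPM, library totals, quantile normalization, voom or the replicate block. The block gives the same estimate there as leaving out 91 d replicate 4. Of all genes tested, 45.3% were called with age in Golden Hills (22.1% lower) and 31.7% in Lost Hills (15.7% lower), against 2 of 3 members, both lower, in each. By size the single type 2 gene was number 83 of 19716 from the largest fall in Golden Hills and 302 in Lost Hills, and the type 3 gene number 526 and 215. Without replicate 2 of both 91 d groups all 4 falls were called by limma: in Golden Hills -3.21 for the single type 2 and -1.71 for the type 3 gene, in Lost Hills -1.86 and -2.05. Summed chlorophyll a-b binding transcripts were also lower at 133 d in every library, with 9 of 16 tested genes lower and 3 higher in Golden Hills, 3 lower and 1 higher in Lost Hills, and 1 of the 20 at 0 throughout. Other marker lists moved with age too. In Golden Hills summed seed storage transcripts were 55.5 to 99.6 FPKM at 91 d and 23.6 to 29.05 at 133 d, phloem transcripts (59 genes) 950.5 to 1244 and 729.7 to 974, and epidermis transcripts (14 genes) 63.6 to 81.4 and 86.9 to 97.95. Of these sums in Golden Hills, those of phloem overlapped between the ages, and those of seed storage and epidermis did not. In Lost Hills all of the same sums overlapped, at 50.8 to 116 and 33.1 to 51.2, 1252 to 1452 and 1138 to 1286, and 70.2 to 80.5 and 50.1 to 74.9. By limma, 9 phloem genes of 33 tested were higher and 13 lower in Golden Hills, and 5 higher and 7 lower in Lost Hills; 2 epidermis genes of 6 were higher and 3 lower in Golden Hills, and 0 higher and 3 lower in Lost Hills. Of 13 seed storage genes tested, 1 was higher and 1 lower in Golden Hills, and 3 higher and 2 lower in Lost Hills, and the 1 xylem gene tested was called in neither. Genes at 0 in all libraries numbered 1 for seed storage, 4 for epidermis, 10 for phloem and 1 for xylem. The part of these markers in the falls was not tested. In bulk tissue, fewer cells that hold a transcript and less of it per cell cannot be told apart.

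The age effect was then compared between the cultivars. For the single type 2 gene it was larger in Golden Hills by -1.50 (SE 0.46, 95% interval -2.47 to -0.52), which did not pass across all genes (limma adjusted p = 0.0878; 3.29% of genes were called). It did pass with only these 4 groups in the fit (adjusted p = 0.0272), with array weights, with quantile normalization and without replicate 1 or 2 of cracked Lost Hills, and moved to -1.36 (adjusted p = 0.195) without replicate 2 of both 91 d groups. The differences for the merged type 2 gene (0.41, -0.56 to 1.39) and the type 3 gene (0.17, -0.70 to 1.03) had 95% intervals that include 0.

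Between intact hulls of the cultivars, the single type 2 gene was 3.93-fold lower in Golden Hills than in Lost Hills at 133 d (log2 fold change -1.97, SE 0.35, limma adjusted p = 0.000833), where 16.8% of genes were called and 7.91% were lower. Type 3 had -0.66 there (SE 0.31, adjusted p = 0.157), and the merged type 2 gene 0.09 (SE 0.35), a difference whose sign was negative with TPM, library totals, quantile normalization, voom or array weights. At 91 d no member passed, where 5.1% of genes were called: the type 3 gene was at -0.83 (SE 0.27, unadjusted p = 0.00663 and adjusted p = 0.092 by limma), the single type 2 gene at -0.48 (SE 0.30) and the merged type 2 gene at -0.32 (SE 0.30). Without both replicate 2 libraries these were -0.9998 (limma adjusted p = 0.0863), -0.62 and -0.39. The type 3 value at 91 d passed with array weights (-0.92), and that at 133 d passed with array weights (-0.85), voom (-0.80) and quantile normalization (-0.79).

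Split hulls were set against intact hulls of the same cultivar and age. In tattered Golden Hills no member was called by limma, against 16.6% of all genes (9.29% higher, 7.35% lower): the log2 fold changes were 0.22 (95% interval -0.52 to 0.96) for the merged type 2 gene, 0.12 (-0.61 to 0.86) for the single type 2 gene and -0.22 (-0.87 to 0.43) for the type 3 gene. In cracked Lost Hills, where 1.56% of all genes were called and 1.48% were higher, no member passed either. Merged type 2 was at 0.02 (-0.72 to 0.75) and the type 3 gene at -0.12 (-0.77 to 0.54). The single type 2 gene was at -0.99 (SE 0.35, 95% interval -1.73 to -0.25, unadjusted p = 0.0112 and adjusted p = 0.267 by limma), 79th from the largest fall, with groups that overlapped. That value rested on single libraries: it was -1.44 and passed (adjusted p = 0.0184 by limma) with cracked replicate 2 left out, and -0.49 with cracked replicate 1 left out. The split effect of this gene differed between the cultivars by 1.11 (SE 0.49, limma adjusted p = 0.313, 0.994% of genes called), and the other members' split effects differed by 0.20 and -0.10. Summed phloem transcripts were 1115 to 1248 FPKM in tattered and 729.7 to 974 in intact Golden Hills, with 4 of 33 genes called higher and 1 lower. Those of the xylem list were 1.73 to 1.97 and 0.541 to 0.962, with 0 genes called. The sums of the other marker lists overlapped there, and all overlapped between cracked and intact Lost Hills. The part of these markers was not tested.

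**Figure D3:**
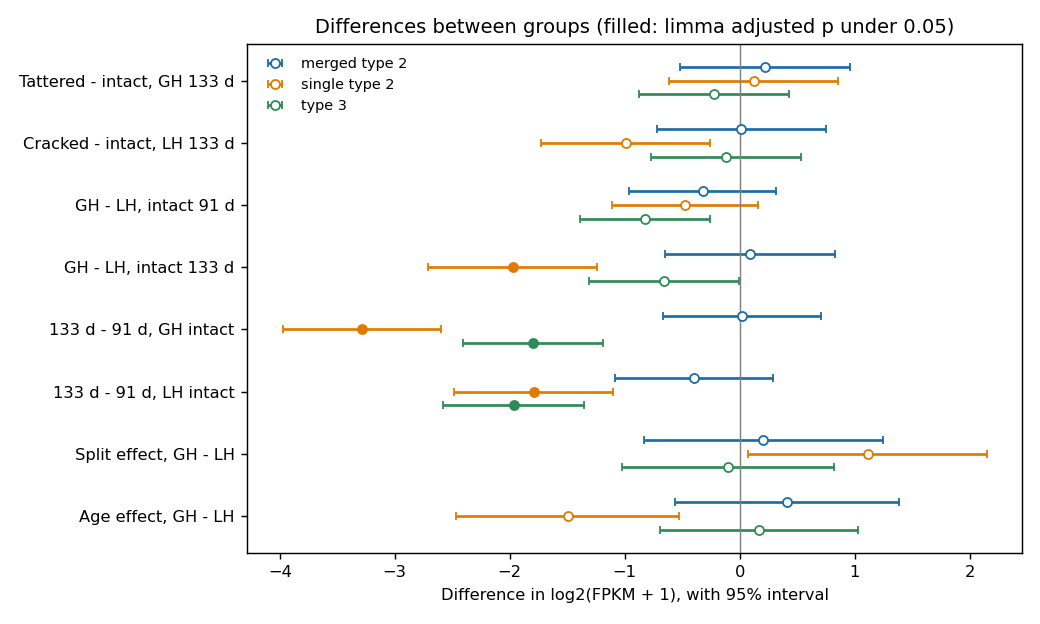
Difference in log2(FPKM + 1) between groups (horizontal axis, points with 95% intervals from limma) for the 3 genes in 8 comparisons; GH is Golden Hills and LH Lost Hills, and filled points have an adjusted p under 0.05. The 5 filled points are the falls with age of the single type 2 and type 3 genes in both cultivars and the lower single type 2 level of intact Golden Hills at 133 d.

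Ratios between the members within a library do not depend on how libraries were scaled. At 91 d merged over single type 2 was 6.61 to 7.36 in Golden Hills and 5.96 to 6.83 in Lost Hills. At 133 d Golden Hills had 57.6 to 83.4 when intact and 54.9 to 86.7 when tattered, and Lost Hills had 12.3 to 23.03 when intact and 18.1 to 58.4 when cracked. Type 3 stood at 36.4% to 42.1% of the merged type 2 gene in Golden Hills and 48.3% to 60.6% in Lost Hills at 91 d. At 133 d Golden Hills had 8.37% to 12.8% when intact and 7.66% to 8.69% when tattered, and Lost Hills had 13.4% to 28.6% when intact and 12.5% to 20.6% when cracked. Between the members that fell, the ratio of type 3 to single type 2 stayed in a similar range in intact Lost Hills at both ages (3.30 to 3.68 and 2.67 to 3.52) and was higher at the later age in Golden Hills (2.61 to 2.87 and 6.98 to 8.81).

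The age differences of the ratios were tested by two-sided exact permutation tests of the log2 ratios, 18 tests in all. Merged over single type 2 differed with age 9.94-fold in Golden Hills and 2.64-fold in Lost Hills, and merged type 2 over type 3 3.53-fold and 2.97-fold. Each of these 4 had an exact permutation p = 0.0286, the smallest that 4 libraries against 3 allow, and an adjusted p = 0.0735. The same exact p and adjusted p were found for type 3 over single type 2 with age in Golden Hills, a 2.82-fold difference, while in Lost Hills the difference was 1.13-fold (exact p = 0.171). Between the cultivars at 91 d, type 3 was 1.42-fold lower in Golden Hills relative to merged type 2 and 1.27-fold lower relative to single type 2, with the same exact permutation p = 0.0286 and adjusted p = 0.0735. At 133 d exact permutation tests of 3 against 3 cannot go below p = 0.1, which the 3 ratios between intact cultivars reached. With these limits on the exact p, no adjusted p over the 18 tests could fall under 0.05, whatever the values. Without both replicate 2 libraries of 91 d, the 7 log2 ratio differences at the smallest p kept their direction and had an adjusted p = 0.15. In cracked against intact Lost Hills type 3 over single type 2 did not overlap and was 1.83-fold higher (exact permutation p = 0.1, adjusted p = 0.15).

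**Figure D4:**
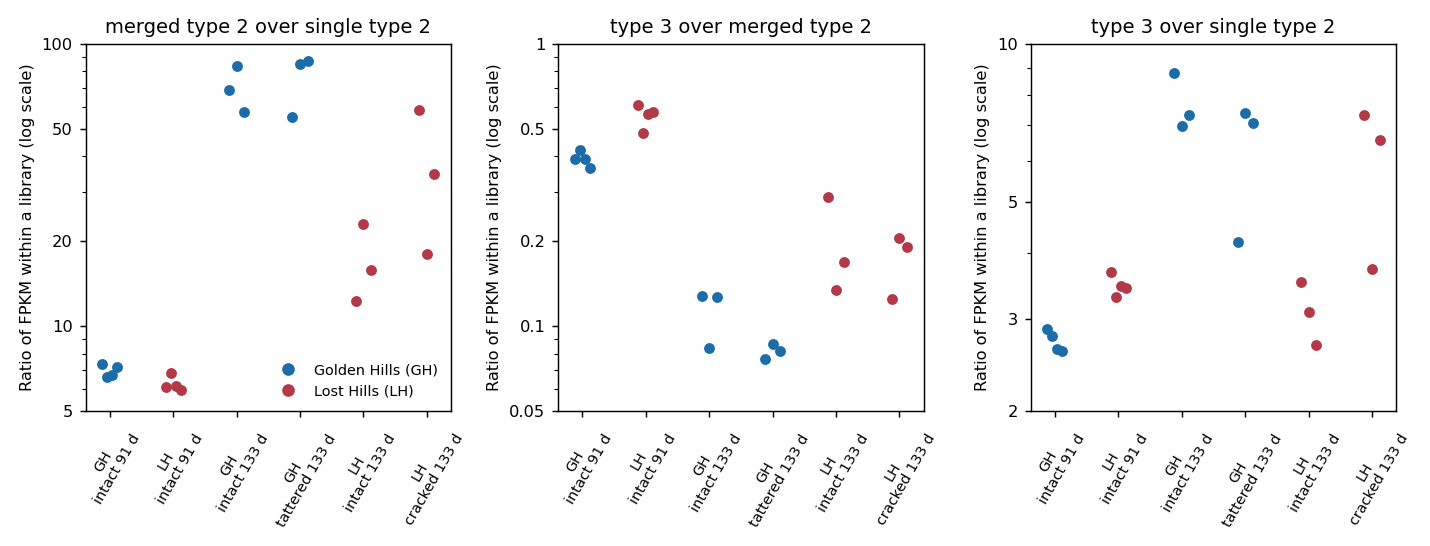
Ratios of FPKM between pairs of the 3 genes within each library (vertical axes, log scale), by group; blue points are Golden Hills and red points Lost Hills. Merged over single type 2 goes from 5.96 to 7.36 at 91 d to 54.9 or more in Golden Hills at 133 d, while Lost Hills at 133 d spans 12.3 to 58.4.

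At 91 d the 3 transcripts varied more in level than in their ratios to each other. Within Golden Hills the coefficients of variation of the levels were 24.4%, 22.7% and 27.2% (merged type 2, single type 2, type 3), while those of the 3 ratios were 4.69% to 6.04%. In replicates 1 and 2 all 3 were higher than in replicates 3 and 4. In Lost Hills at 91 d the levels varied by 11.8% to 16.8% and the ratios by 4.601% to 9.37%, with replicate 4 highest in all 3, while from replicate 2 to replicate 3 the merged type 2 gene was lower and the others higher. At 133 d ratios varied as much as levels in several groups, up to 54.8% for merged over single type 2 in cracked Lost Hills.

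Across all 20 libraries the single type 2 and type 3 genes had Pearson's r 0.955 with each other on log2(FPKM + 1), and the merged type 2 gene had 0.248 and 0.352 with them; these are descriptions over libraries that share groups. Among the 13384 other genes whose mean reached 5 FPKM, the single type 2 gene was the 5th most alike to the type 3 gene. The 3 most alike to the type 3 gene were Transcription factor UNE12 (evm_TU_ptg000007l_907, r 0.966), the undescribed evm_TU_ptg000007l_152 (0.960) and Alpha-glucan water dikinase 2 (evm_TU_ptg000001l_2956, 0.959), named for an enzyme that phosphorylates starch. Those most alike to the single type 2 gene were the undescribed evm_TU_ptg000020l_2237 (0.978), Dynein light chain LC6 (evm_TU_ptg000027l_419, 0.978) and Transcription factor LRL3 (evm_TU_ptg000001l_983, 0.977). Most like the merged type 2 gene were Protein-tyrosine-phosphatase IBR5 (evm_TU_ptg000019l_1799, 0.846), Protein usf (evm_TU_ptg000019l_1877, 0.833) and Protein S-acyltransferase 11 (evm_TU_ptg000024l_582, 0.807). After group means were subtracted, r between the single type 2 and type 3 genes was 0.787, and the closest genes were Kinesin-like protein KIN-7N (evm_TU_ptg000001l_2866, 0.911), a FHA domain gene (evm_TU_ptg000008l_173, 0.895) and Basic blue protein (evm_TU_ptg000017l_1069, 0.890) for the single type 2 gene. For the type 3 gene they were Protein arginine N-methyltransferase PRMT10 (evm_TU_ptg000001l_1470, 0.867), Sulfate transporter 1.3 (evm_TU_ptg000001l_3162, 0.840) and a pyridine nucleotide-disulfide oxidoreductase (evm_TU_ptg000013l_1778, 0.838). For the merged type 2 gene they were Ubiquitin-conjugating enzyme E2 variant 1B (evm_TU_ptg000024l_1446, 0.866), Protein S-acyltransferase 11 (0.853) and a thioredoxin domain gene (evm_TU_ptg000001l_2209, 0.842).

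Among the 6 libraries of Lost Hills at 133 d, the lowest for the single type 2 gene lay furthest along the first principal component of all tested genes other than the members, which parted the ages and carried 53.2% of the variance. Replicate 1 of the cracked group, at 290 FPKM, lay at 48.1 on that component, and the intact replicate 1, at 1185 FPKM, lay at -0.110. Over these 6 libraries Pearson's r was -0.866 for the single type 2 gene (exact permutation p = 0.0333, adjusted p = 0.1; Spearman's rho -0.829, exact p = 0.0583, adjusted p = 0.35) and -0.822 for the type 3 gene (exact p = 0.0236, adjusted p = 0.1; rho -0.714, exact p = 0.136, adjusted p = 0.408). Without the 2 libraries furthest from the median of the component, r was -0.565 and -0.459, so the relation rests on those libraries. For the merged type 2 gene r was 0.101 (exact p = 0.857; rho 0.143, exact p = 0.803). The 8 libraries of 91 d gave r of -0.0246, -0.231 and -0.341 for the merged type 2, single type 2 and type 3 genes (exact p = 0.955, 0.596 and 0.415; rho 0.0476, -0.0952 and -0.214, exact p = 0.935, 0.840 and 0.619). These 6 relations were chosen after the values were seen. The single type 2 and type 3 genes were already known to fall with age. A negative r with a component that parted the ages is therefore no separate result about them. The share of all genes with as strong an r is not given here, and the 6 Lost Hills libraries pool intact and cracked hulls.

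Among the 10 most abundant transcripts of the series by mean level, the members held the 1st, 2nd and 10th place. Others of the 10 rose with age in place of falling: the chitin-degrading Endochitinase A (evm_TU_ptg000022l_402_evm_TU_ptg000022l_403) went from 32.1 to 5621 FPKM in Golden Hills and from 27.2 to 1350 in intact Lost Hills (limma log2 fold changes 7.34 and 5.59, adjusted p = 1.63e-09 and 9.51e-08). The undescribed evm_TU_ptg000001l_3518 rose in Golden Hills, from 1631 to 12971 FPKM (2.91, adjusted p = 2.62e-05), and was at 0.88 in Lost Hills (adjusted p = 0.12). A gene with an ABA/WDS induced protein domain (evm_TU_ptg000001l_3568) fell with age in both cultivars (-1.29 and -1.23, adjusted p = 0.00095 and 0.0025) and rose in tattered hulls (1.12, adjusted p = 0.0154). A dehydrin (evm_TU_ptg000001l_2261), of a family that protects cells against water loss, rose in tattered hulls too (1.15, adjusted p = 0.0166) and with age in Lost Hills (0.98, adjusted p = 0.0145). A Non-specific lipid-transfer protein (evm_TU_ptg000027l_181) rose in tattered hulls (0.87, limma adjusted p = 0.0488). These rises in tattered hulls are on FPKM as deposited, and their values with other scalings are not given here. With TPM the median log2 fold change over all genes in that comparison was -0.13 in place of 0.013. Translationally-controlled tumor protein homolog (evm_TU_ptg000022l_2314) fell with age in Golden Hills (-0.76, adjusted p = 0.00545), and Glycine-rich RNA-binding protein 7 (evm_TU_ptg000020l_2435) passed in none of these 4 comparisons.

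Other genes of metal handling were followed as 6 lists chosen by words in the gene descriptions, 130 tested genes without the members. With age 80 of them were called in Golden Hills (49 higher, 31 lower; 61.5%) and 64 in Lost Hills (34 higher, 30 lower; 49.2%), against 45.3% and 31.7% of all genes (23.2% and 16% higher). Their median log2 fold changes were 0.18 and 0.16, against -0.03 and 8.00e-05 over all genes. In both cultivars 53 were called, 29 higher in both and 24 lower in both. Copper handling genes were higher wherever they were called, 8 of 12 in Golden Hills and 5 of 12 in Lost Hills. Copper transport protein ATX1 (evm_TU_ptg000009l_839), a cytosolic copper chaperone, rose from 362 ± 55.2 to 1069 ± 113 FPKM in Golden Hills (log2 fold change 1.57, limma adjusted p = 2.24e-07) and from 315 ± 30.5 to 531 ± 56.3 in Lost Hills (0.75, adjusted p = 0.000819).

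Zinc and iron uptake genes had 9 of 20 higher and 3 lower in Golden Hills, and 9 higher and 5 lower in Lost Hills. Ferric reduction oxidase 2 (evm_TU_ptg000019l_444), which reduces ferric iron before uptake in Arabidopsis, rose most, by 3.00 and 2.79 on the log2 scale. Metal tolerance protein 4 (evm_TU_ptg000011l_613), taken into this list by a word in its description, fell by 1.14 and 1.46. Among vacuolar and efflux transporters, 9 of 23 were higher and 7 lower in Golden Hills, and 4 higher and 5 lower in Lost Hills. Vacuolar iron transporter 1 (evm_TU_ptg000024l_1345), which stores iron in the vacuole in Arabidopsis, went from 12.6 ± 8.54 to 0.278 ± 0.259 FPKM and from 18.1 ± 16.1 to 0.797 ± 1.19. Vacuolar iron transporter homolog 1 (evm_TU_ptg000017l_1233) had no read in Golden Hills at 91 d and 16.5 ± 2.64 FPKM at 133 d, and Metal tolerance protein 11 (evm_TU_ptg000009l_535) rose from 14.3 ± 3.68 to 84.3 ± 6.97 FPKM in Lost Hills.

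Chelation and storage genes had 4 of 13 higher and 1 lower in Golden Hills, and 4 higher and 2 lower in Lost Hills. Ferritin-2 (evm_TU_ptg000009l_135), an iron store of plastids, fell from 94.3 ± 18.01 to 22.8 ± 7.50 FPKM in Golden Hills (-2.03, limma adjusted p = 1.86e-05). It was called lower in Lost Hills too (-1.33). Nicotianamine synthase (evm_TU_ptg000007l_75), which makes a small chelator that carries metals between cells, fell from 62.8 ± 12.1 to 21.1 ± 8.67 FPKM in Lost Hills (-1.60, adjusted p = 8.81e-05) and rose in tattered Golden Hills, from 33.0 ± 4.77 to 73.9 ± 12.1 (1.14, adjusted p = 0.00627). Desiccation-related protein PCC13-62 (evm_TU_ptg000019l_938), listed for a ferritin-like domain, rose most of all, from 0.443 ± 0.300 to 682 ± 260 FPKM and from 0.310 ± 0.314 to 57.1 ± 2.26. Blue copper proteins, small secreted or membrane-bound electron carriers, had 9 of 35 higher and 12 lower in Golden Hills, and 6 higher and 10 lower in Lost Hills. Chemocyanin (evm_TU_ptg000019l_1446) rose from 21.7 ± 3.05 to 401 ± 22.1 and from 44.8 ± 11.2 to 395 ± 112 FPKM, while Basic blue protein (evm_TU_ptg000017l_1068) fell by 4.10 in Golden Hills and Early nodulin-like protein 1 (evm_TU_ptg000009l_2512) fell by 3.44 in Lost Hills. Of the heavy metal-associated isoprenylated plant proteins, named for a metal-binding domain and a lipid anchor, 11 of 31 were higher and 10 lower in Golden Hills, and 7 higher and 9 lower in Lost Hills; number 47 (evm_TU_ptg000009l_3037) rose by 3.27 and 2.07, and number 32 (evm_TU_ptg000022l_1925) fell by 1.87 and 1.67.

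**Figure D5:**
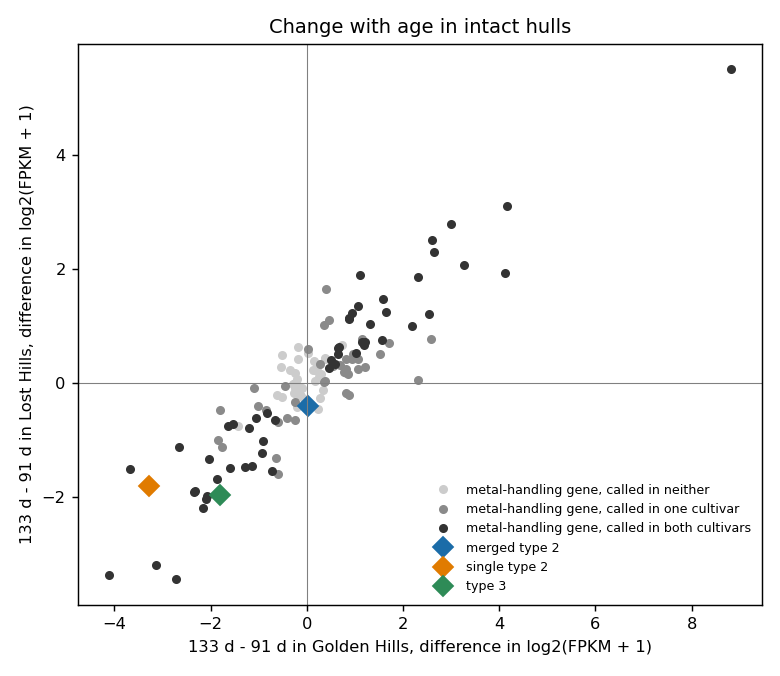
Change from 91 d to 133 d in intact hulls of Golden Hills (horizontal axis) and Lost Hills (vertical axis), as differences in log2(FPKM + 1), for 130 metal-handling genes (circles, shaded by whether limma called them in both, 1 or neither cultivar) and the 3 metallothionein-like genes (diamonds). The single type 2 and type 3 genes lie low on both axes, with 2 of the 130 genes lower than the former in Golden Hills and 6 lower than the latter in Lost Hills, and the merged type 2 gene lies at 0.02 and -0.39.

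In tattered hulls, where no metallothionein-like gene was called, 27 of the 130 metal-handling genes were (18 higher, 9 lower). That is 20.8%, against 16.6% of all genes (9.29% higher, 7.35% lower). Blue copper proteins made up 11 of the rises with 0 falls, led by Uclacyanin 1 (evm_TU_ptg000004l_83), a copper protein of the cell surface, with no read in intact and 55.8 ± 12.7 FPKM in tattered Golden Hills (limma adjusted p = 2.28e-08). Heavy metal-associated isoprenylated plant protein 24 (evm_TU_ptg000001l_3166) rose from 1.05 ± 0.129 to 14.7 ± 4.12 FPKM (2.90, adjusted p = 3.89e-05), 1 of 5 rises against 2 falls on its list. All 3 copper handling genes, both zinc and iron uptake genes and both vacuolar and efflux transporters that were called fell, among them the copper pump HMA5 (evm_TU_ptg000010l_426, -0.60), Ferric reduction oxidase 6 (evm_TU_ptg000024l_215, -0.80) and Metal tolerance protein 1 (evm_TU_ptg000010l_67, -0.56), with adjusted p = 0.039, 0.0294 and 0.0242; each of these 3 lost its call when single libraries of the comparison were left out. In cracked Lost Hills 4 of the 130 were called, all higher (3.08% against 1.56% of all genes). Of all genes 1.48% were called higher, so nearly every call in this comparison was a rise. Blue copper proteins made up 3 of the 4, with Uclacyanin 1 at 1.02 ± 1.77 and 8.45 ± 4.67 FPKM (log2 fold change 2.46, limma adjusted p = 0.00231). When limma was fitted to the 6 Lost Hills libraries of 133 d alone, 0 of the 130 were called in cracked hulls. The share of all genes called in that fit is not given here.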

How the data were processed

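The authors deposited 1 table of FPKM values, 1 column per library; per the submitters' processing notes, HISAT2 2.0.5, StringTie 1.3.3b and featureCounts 1.5.0-p3 were used, with no genome build given. Per the labels' protocols, polyadenylated RNA was selected and second strands were made with dUTP. Multiplied by gene length, 100% of values above 0 were whole multiples of 1 step per library (tolerance 0.01), which gave the reads; totals were 16116971 to 18609861. The deposited FPKM thus carry whole-read depth. Gene length is the deposited value in bases. No metallothionein sequence was used here.

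Differences came from limma 3.58.1 (R 4.3.3; trend, two-sided) on log2(FPKM + 1), 1 fit over 20 libraries in 6 groups without a replicate block, on genes that reached 1 FPKM in 3 or more libraries; calls are at a Benjamini-Hochberg adjusted p under 0.05. The step was tested on simulated data. Members and lists were chosen with earlier results of these data known. Named genes are the members, the 10 highest by mean, the 3 most alike to each member, and per list and split or age comparison the called gene with the largest rise and fall at 5 FPKM or more. Lists were matched by words in gene descriptions, so the blue copper list takes in plastocyanin-like domains and the chelation list ferritin-like ones; ZIP and YSL were read as gene symbols. Alternatives were other pseudocounts, filters, scalings and models, each library left out, and a replicate block.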

Additional observations from a re-analysis of the deposited data

How the results depend on the processing

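The 5 called differences (the falls with age of the single type 2 and type 3 genes, and the lower single type 2 level of intact Golden Hills at 133 d) stayed called in the same direction in each of 32 other settings, with the highest adjusted p, 0.0235, for the type 3 gene with age in Golden Hills. That value came from the replicate block with only the groups compared (log2 fold change -1.94), and the block ended no call of a member. No 133 d library is numbered 4, so in the age comparisons the block takes 91 d replicate 4 out of the estimate. In Golden Hills the blocked values equal those without that library, -1.94 for the type 3 gene and -0.082 for the merged type 2 gene. Correlations between the deviations of same-numbered libraries ran from -0.174 to 0.223, and in no comparison were all of them over 0.1. In tattered against intact Golden Hills they ran from 0.0776 to 0.223. So few pairs cannot decide whether same-numbered samples share a tree or a batch. With age in Golden Hills the median over all genes shifted to -0.18 (TPM) and -0.16 (library totals) on the log2 scale.

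Differences that did not pass changed sign, or passed, as follows; the cause was not tested. The merged type 2 gene with age in Golden Hills was -0.15 with TPM, library totals and voom, -0.36 with quantile normalization and -0.082 with the replicate block (-0.082 to 0.16 with libraries left out). Between intact cultivars at 133 d it was -0.036 with TPM, -0.053 with library totals and voom, -0.36 with quantile normalization and -0.15 with array weights (-0.097 to 0.28). In cracked hulls it was -0.024 with TPM, -0.0054 with library totals, -0.0039 with voom and -0.18 with array weights (-0.17 to 0.20). The single type 2 gene in tattered hulls was -0.053 with TPM and -0.14 with quantile normalization (-0.050 to 0.24). The type 3 gene in cracked hulls ranged from -0.35 to 0.19 with libraries left out; its split interaction was 0.043 with array weights (-0.41 to 0.13). With quantile normalization the age interactions were -0.36 for merged type 2, -0.79 for type 3 (-0.065 to 0.34 with libraries left out) and -1.87 for single type 2; the last was -1.64 with array weights and -1.50 with only the groups compared (-1.73 to -1.28). Quantile normalization gives the highest gene of nearly every library 1 shared value by construction. The merged type 2 values of -0.36 thus come from replicate 1 of intact Golden Hills at 133 d, where that gene stood second. The type 3 gene stood second in every 91 d library and got 1 shared value there too. Its 91 d difference between the cultivars vanished with this scaling (3.55e-15), and its interaction of -0.79 is the 133 d difference alone. The single type 2 gene in cracked hulls ranged from -1.44 to -0.49. The type 3 gene, Golden Hills against Lost Hills, passed with array weights at 91 d (-0.92) and 133 d (-0.85), and at 133 d with voom (-0.80) and quantile normalization (-0.79). The log2 ratio of merged to single type 2 in tattered against intact hulls ranged from -0.035 to 0.31, and of type 3 to merged type 2 in cracked hulls from -0.37 to 0.18.

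Of shares of reads in place of FPKM, the means were 2.01%, 2.72%, 1.40%, 1.53%, 1.60% and 1.54% (Golden Hills and Lost Hills at 91 d, intact and tattered Golden Hills, intact and cracked Lost Hills). The 27 metal-handling genes called in tattered hulls were 16 at a mean of at least 5 FPKM and 43 with array weights (17 to 30 with libraries left out, lowest without replicate 1 of the tattered group). The 4 in cracked hulls were 2, 9 and, with only the groups compared, with or without the replicate block, 0 (3 to 10, highest without replicate 2 of the cracked group). The filter at 5 FPKM leaves fewer genes tested. Shares of all genes called in these settings are not given here, so the counts show nothing particular to the lists. The list alternatives, and the libraries left out of the parts of the drop with age, were chosen after seeing the data. Of the 29 calls of named list genes, the largest rise and fall per list and comparison, 4 were lost in some setting and 0 changed sign. The other calls of list genes are not covered by this count.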
